A study of Mus musculus with 6 samples.

Results

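The 9 genes described here encode the cyclins, kinases and phosphatase that carry a mouse cell through the G1 phase of the cell cycle, and they were Ccnd1, Ccnd2, Ccnd3, Ccne1, Ccne2, Cdk2, Cdk4, Cdk6 and Cdc25a. They were picked out by gene name from a table of 56941 genes, with earlier results of these data known, and all 9 were present. All 9 also passed the filter on low counts, which 32149 genes of the table passed. The study sequenced total RNA of hair follicle stem cells (HFSCs), sorted as CD34+/α6-integrin+ cells from dorsal skin of female mice at postnatal day (PD) 68, when the paper places both genotypes in the second telogen. There were 3 biological replicates per genotype, and the number of mice in each is not given in the sources used here. All mice were of the strain B6;129S4-Dab2tm1Cpr/J, carried floxed alleles of Dab2 on both chromosomes and received tamoxifen at 75 mg/kg on 5 consecutive days. The group labelled WT lacked the Cre transgene. The group labelled Dab2-cKO carried K14CreER, a Cre recombinase that tamoxifen activates and that the K14 promoter drives in basal keratinocytes and bulge cells, but not in cell types where this promoter is silent.

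In G1, D-type cyclins respond to mitogens and bind CDK4 or CDK6, and these kinases begin to phosphorylate the retinoblastoma protein. E2F factors are then released and switch on E-type cyclins, which bind CDK2 and drive entry into S phase. CDC25A removes inhibitory phosphates from these kinases, and INK4 and CIP/KIP proteins inhibit them. In the hair follicle, bulge stem cells are mostly quiescent in telogen, and cyclin D1 is known to appear as they and the hair germ are activated.

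The libraries held 7040032 to 11696457 counts, and the precision given below is that of the spread between 3 libraries. Dab2, the targeted gene, went against its label, with 309 to 338 normalized counts where the label reads WT and 1300.2 to 1434 where it reads Dab2-cKO (log2 fold change 2.08, SE of 0.08, adjusted p 3.04e-34 by edgeR). Counts of whole genes do not show whether the floxed exon is in the transcripts. Genotypes are therefore given throughout as the libraries are labelled, and every direction depends on those labels. The sorting marker Cd34 (455 to 562 against 1755 to 1820 normalized counts) and the basal markers Krt14, Krt15 and Itga6 were present in all 6 libraries and called higher in those labelled Dab2-cKO. Of the whole list of 14 bulge markers, 9 were called higher and 5 lower, the latter being Sox9 (log2 fold change -1.45), Lhx2 (-1.43), Lgr5 (-1.32), Foxc1 (-1.001) and Tbx1 (-1.99). Markers of other cells differed too, while of all genes tested 11.5% were called lower and 16.8% higher. Of the markers of hair shaft, inner root sheath and matrix, 12 of 12 tested were lower, with a summed level of 229004 to 275005 normalized counts in WT and 3236 to 3303 in Dab2-cKO. Of 8 hair germ markers, 8 were lower (5182 to 6160 against 1133 to 1246). Of the fibroblast and dermal papilla markers, 8 of 10 were higher (114320 to 138207 against 398595 to 418240), as were 9 of 10 immune markers (2468 to 2745 against 10695 to 11089), 6 of 6 endothelial markers (1441 to 1603 against 4969 to 5104) and 6 of 6 skeletal muscle markers (17947 to 20761 against 98141 to 100679). Per kb of exon, the most abundant gene of these lists was Tchh, Hoxc13, Col1a1, Cd74, Cdh5 and Acta1 in turn. Differentiated epidermis (6 of 7), sebaceous gland (6 of 6), adipocyte (4 of 5) and erythrocyte (5 of 5) markers, with Krt77, Scd1, Fabp4 and Hba-a1 the most abundant per kb, were also mostly higher, and all 6 melanocyte markers, Dct the most abundant among them, were lower. No marker in these lists was at 0 in any library. Since the RNA was measured in bulk, fewer cells of a type and less RNA per cell cannot be told apart, and the part of these other cells in the results below was not tested. Whether the follicles of both genotypes were in telogen, where the paper places them, was not tested here either, and the hair shaft, matrix and hair germ markers differed as given above. Mitochondrial genes took 12.99% to 14.4% of the counts in WT and 19.1% to 20.3% in Dab2-cKO, and the 100 most abundant genes took 33.1% to 33.9% and 44.5% to 46.6%. Neither share overlapped between the genotypes, and their part in the results was not tested beyond TMM factors computed without these genes, which changed no call among the 9 genes.

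Among the 9 genes, 7 were called lower in the libraries labelled Dab2-cKO and 1, Ccnd3, was called higher, by edgeR's quasi-likelihood test with an adjusted p under 0.05. Of all genes tested 28.2% were called, 11.5% lower and 16.8% higher. DESeq2 called 6 of the 9 lower and 1 higher, beside 10.9% and 17.9% of the genes it gave an adjusted p. Against a 1.5-fold change edgeR called 2 lower, Ccnd1 and Cdk4, and 0 higher, beside 3.53% and 6.91% of all genes tested. Cdk6 was not called. The median log2 fold change of the 9 genes was -0.62, beside -0.02 over all genes tested. In 6 of the 9 genes every Dab2-cKO library was below every WT library, and in 2 every Dab2-cKO library was above, while 17.7% of all genes tested did not overlap in the first way and 20.6% in the second. The largest decreases were about 1.91-fold for Ccne2, 1.84-fold for Cdk4 and 1.81-fold for Ccnd1, and their order changed when some single libraries were left out.

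**Figure D1:**
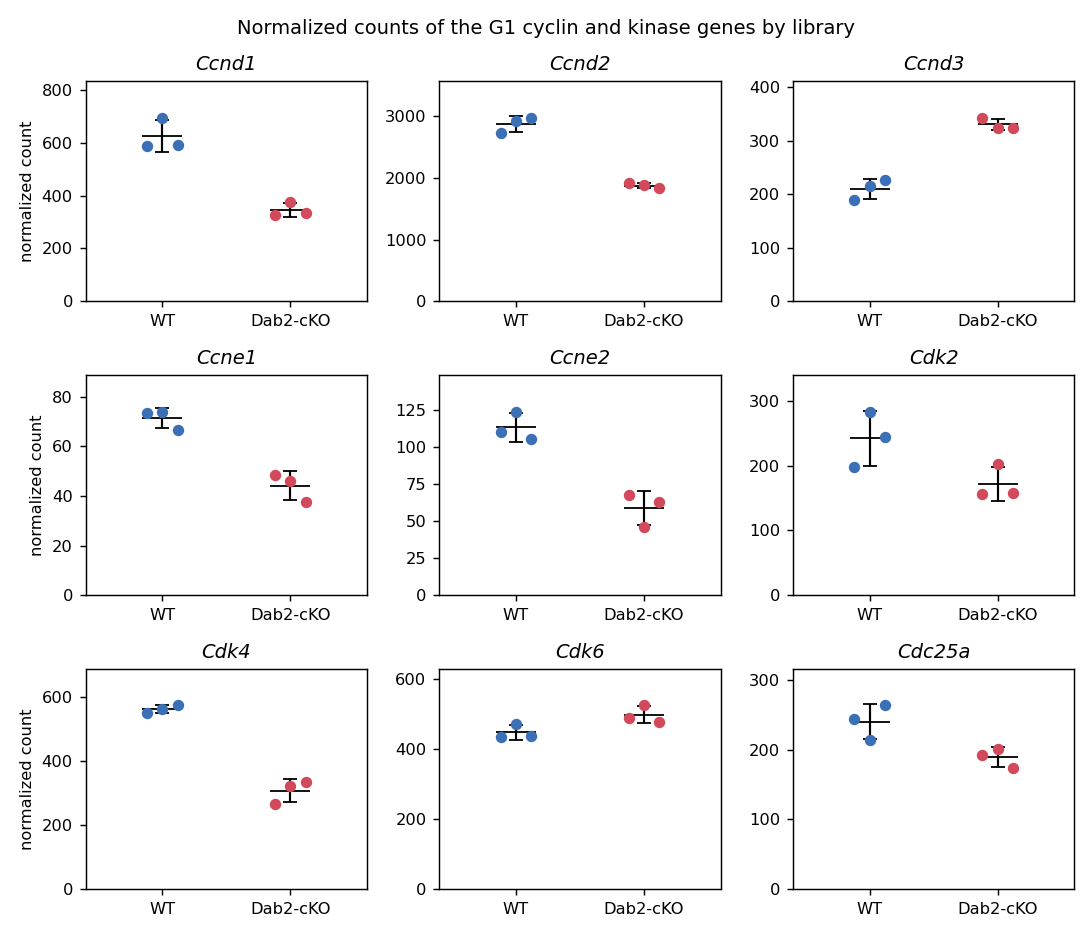
Normalized count (vertical axis, from 0) of each of the 9 genes in the 3 WT and 3 Dab2-cKO libraries, with points for libraries, horizontal lines for group means and bars for 1 SD. Ccnd1, Ccnd2, Ccne1, Ccne2, Cdk4 and Cdc25a lie lower in every Dab2-cKO library, Ccnd3 and Cdk6 higher, and the groups overlap in Cdk2.

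Ccnd1 encodes cyclin D1, a target of Wnt/β-catenin signalling in several tissues, and lies on the minus strand of chromosome 7 of GRCm39 from 144483668 to 144493662 (ENSMUSG00000070348). Its normalized counts were 589, 695 and 592 in WT replicates 1 to 3 and 327, 377 and 333 in Dab2-cKO replicates 1 to 3. The groups did not overlap, and the highest Dab2-cKO library was far below the lowest WT library. The mean fell from 625 ± 60.4 to 346 ± 27.4 (SD, n = 3 each), a log2 fold change of -0.86 (SE 0.09, adjusted p 1.56e-12 by edgeR). Of the exon bases of Ccnd1, 48.4% are also exon of LTO1 on the opposite strand. LTO1 had 156 and 160 normalized counts in the WT and Dab2-cKO libraries, a log2 difference of 0.03 (adjusted p 0.906 by edgeR). The strand setting of the counting is not given in the sources used here, so counts of genes that share exon bases are uncertain to that extent.

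Ccnd2 encodes cyclin D2, and had the highest level of the 9 genes per kb of exon in both genotypes. It lies on the minus strand of chromosome 6 from 127102125 to 127129156 (ENSMUSG00000000184). WT replicates 1 to 3 held 2718, 2917 and 2970 normalized counts, and Dab2-cKO replicates 1 to 3 held 1906, 1874 and 1834. The Dab2-cKO libraries varied by 1.93% around their mean, and all were below WT. The mean fell from 2868 ± 133 to 1872 ± 36.04 (SD, n = 3 each), which was 65.2% of WT (log2 fold change -0.62, SE 0.07, adjusted p 1.08e-11 by edgeR). Antisense lncRNAs share 15.8% of the exon bases of Ccnd2.

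Ccnd3, encoding cyclin D3, went the other way. It lies on the plus strand of chromosome 17 from 47815767 to 47910624 (ENSMUSG00000034165). Its normalized counts were 189, 216 and 226 in WT replicates 1 to 3 and 343, 324 and 324 in Dab2-cKO replicates 1 to 3. Every Dab2-cKO library was higher than every WT library. The mean rose from 210.5 ± 19.1 to 331 ± 10.9 (SD, n = 3 each), a 1.57-fold difference (log2 fold change 0.65, SE 0.11, adjusted p 1.34e-06 by edgeR). With library size as the sole scaling, the log2 fold change was 0.22 and missed the threshold (adjusted p 0.0896 by edgeR). This scaling moved the median of all genes tested from -0.02 to -0.45, and relative to that median Ccnd3 stood at 0.67 under both scalings. Most markers of immune, endothelial, fibroblast, muscle, sebaceous, adipocyte, erythrocyte and differentiated epidermal cells given above moved in the same direction as Ccnd3. So did 9 of 14 bulge markers, Cd34 among them. Hair germ, matrix and melanocyte markers moved in the direction of the 7 members called lower. The part of any of these in the results was not tested.

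Because the D-type cyclin genes moved in opposite directions, their shares of the family total were compared within each library, which does not depend on the scaling between libraries. Shares were taken per kb of exon. Family shares, here and below, come from the same counts as the fold changes and are not separate evidence for them. Ccnd3 made up 4.73%, 4.88% and 5.28% of the family in WT replicates 1 to 3 and 12.1%, 11.2% and 11.7% in Dab2-cKO replicates 1 to 3. Its share thus was 6.69 percentage points higher, with no overlap between the groups. Ccnd1 took 28.5% ± 1.84 of the WT and 23.5% ± 1.52 of the Dab2-cKO total (± SD, n = 3 each), also without overlap. For Ccnd2 the shares were 66.5% ± 1.65 and 64.8% ± 1.10 (SD, n = 3 each), and the libraries overlapped. In an exact 2-sided permutation test, p was 0.1 for Ccnd3 and Ccnd1, the smallest that 3 against 3 libraries allow, and 0.3 for Ccnd2. Adjusted over the 5 shares tested, these exact permutation p-values were 0.167, 0.167 and 0.375. The total of the 3 genes per kb averaged 458 ± 23.6 normalized counts for WT and 307 ± 6.80 for Dab2-cKO (SD, n = 3 each), 0.670 times the WT level.

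**Figure D2:**
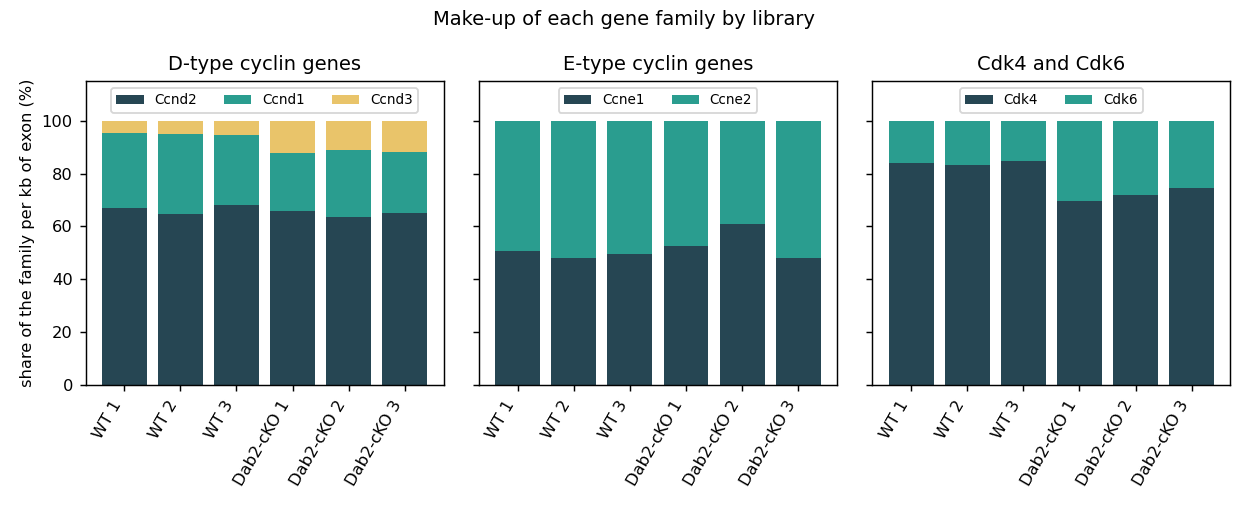
Stacked bars give, for each of the 6 libraries, the share (%) of each gene in its family total, counted per kb of exon. The Ccnd3 part is larger in all 3 Dab2-cKO libraries (11.2% to 12.1%) than in the WT libraries (4.73% to 5.28%), as is the Cdk6 part of Cdk4 plus Cdk6 (25.4% to 30.5% against 15.3% to 16.6%).

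The kinase partners of the D-type cyclins differed from each other as well. Cdk4 encodes CDK4 and lies on the plus strand of chromosome 10 from 126895180 to 126903789 (ENSMUSG00000006728). WT replicates 1 to 3 held 549, 562 and 573 normalized counts, and Dab2-cKO replicates 1 to 3 held 265, 319.9 and 334. The WT libraries varied by 2.18% around their mean, and all Dab2-cKO libraries were far below them. The mean fell from 562 ± 12.2 to 306 ± 36.6 (SD, n = 3 each), a log2 fold change of -0.88 (SE 0.10, adjusted p 2.48e-12 by edgeR). Of its exon bases, 18.8% are exon of Tspan31 on the opposite strand, and Tspan31 itself was at 134 and 149.97 normalized counts (log2 difference 0.16, adjusted p 0.505 by edgeR).

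Cdk6 encodes CDK6, the other kinase activated by D-type cyclins, and lies on the plus strand of chromosome 5 from 3391485 to 3581008 (ENSMUSG00000040274). Its normalized counts were 434, 469 and 435 in WT replicates 1 to 3 and 488, 524 and 477 in Dab2-cKO replicates 1 to 3. The Dab2-cKO libraries were all slightly higher. The difference of 0.15 on the log2 scale missed the threshold (SE 0.09, 95% interval -0.03 to 0.33, adjusted p 0.227 by edgeR). With library size as the sole scaling the sign turned, to -0.27 (adjusted p 0.0043 by edgeR), and relative to the median of all genes Cdk6 stood at 0.18 under both scalings. The share of Cdk6 in Cdk4 plus Cdk6, which no scaling changes, was 15.9%, 16.6% and 15.3% in WT replicates 1 to 3 and 30.5%, 28.1% and 25.4% in Dab2-cKO replicates 1 to 3. It was 12.1 percentage points higher in Dab2-cKO without overlap (exact 2-sided permutation test, p = 0.1, adjusted over the 5 shares 0.167).

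The sequences before the starts of these kinase genes are shown because the kinases bind the same cyclins and yet differed in how their transcripts changed. They are the 250 bases before the RefSeq start, read 5′ to 3′ on the strand of the gene, with coordinates of GRCm38.p6, the build of the promoter table. Of the 9 genes, 6 were matched in that table by symbol, with 7 entries, while Ccnd1, Ccnd2 and Ccne2 had no match. Capitals mark matches on either strand to the E-box CACGTG, to the TCF/LEF motif CTTTGAT and to the E2F motif TTTCGCGC or TTTGGCGC, and none of the matches shown overlap. The cAMP response element TGACGTCA was also searched and had no match in the 7 entries.

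Cdk4, chr10:127063285-127063534, plus strand: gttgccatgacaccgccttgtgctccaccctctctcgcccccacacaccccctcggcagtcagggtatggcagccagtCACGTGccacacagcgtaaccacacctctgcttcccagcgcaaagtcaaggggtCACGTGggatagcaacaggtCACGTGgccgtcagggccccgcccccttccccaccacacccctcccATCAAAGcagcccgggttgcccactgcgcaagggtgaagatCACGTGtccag
Cdk6, chr5:3343643-3343892, plus strand: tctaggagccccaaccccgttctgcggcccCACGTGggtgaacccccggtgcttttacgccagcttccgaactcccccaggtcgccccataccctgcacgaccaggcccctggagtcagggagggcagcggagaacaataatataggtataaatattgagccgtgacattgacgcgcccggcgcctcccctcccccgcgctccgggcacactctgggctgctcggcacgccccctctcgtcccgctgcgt

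The Cdk4 sequence held 4 E-box matches, with first bases 172, 118, 98 and 11 bases before the start, and 1 TCF/LEF match at 52 bases before it. The Cdk6 sequence held 1 E-box match at 220 bases. Of the 32851 promoter entries of the table, 6.02% held at least 1 E-box match in this window, 0.0213% held 4 or more and 3.21% held a TCF/LEF match. These matches describe the letters only.

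The E-type cyclin genes were the least abundant of the 9 per kb. Ccne1 encodes cyclin E1 and lies on the minus strand of chromosome 7 from 37797404 to 37808264 (ENSMUSG00000002068). WT replicates 1 to 3 held 73.5, 74.0 and 66.6 normalized counts, and Dab2-cKO replicates 1 to 3 held 48.6, 46.03 and 37.5. The groups did not overlap, but each was within reach of the background. The median of 1562 chemosensory receptor genes, which serve as a gauge of reads spread evenly over exons, was 4.90 normalized counts per kb, equal to 24.9% of the mean Ccne1 count in WT and 40.3% in Dab2-cKO. Ccne1 fell from 71.4 ± 4.12 to 44.1 ± 5.81 (SD, n = 3 each), a log2 fold change of -0.69 (SE 0.23, adjusted p 0.0145 by edgeR). The call was lost without WT replicate 2 (-0.65, adjusted p 0.0581 by edgeR) and without Dab2-cKO replicate 3 (-0.61, 0.0655).

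Ccne2, encoding cyclin E2, lies on the plus strand of chromosome 4 from 11190303 to 11204947 (ENSMUSG00000028212). Its normalized counts were 110.2, 124 and 105 in WT replicates 1 to 3 and 67.7, 46.03 and 62.9 in Dab2-cKO replicates 1 to 3. Every Dab2-cKO library was lower, Dab2-cKO replicate 2 most of all. The mean fell from 113 ± 9.599 to 58.9 ± 11.4 (SD, n = 3 each), the largest decrease among the 9 genes (log2 fold change -0.93, SE 0.19, adjusted p 4.25e-05 by edgeR). The even background equalled 24.3% of the mean Ccne2 count in WT and 46.7% in Dab2-cKO. Among chemosensory receptor genes, 95% lay at or under 12.3 normalized counts per kb in WT and 11.8 in Dab2-cKO. Ccne2, at 20.1 in WT and 10.5 in Dab2-cKO, was above this limit in WT and below it in Dab2-cKO. Ccne1, at 19.7 and 12.2, was above it in WT and just above it in Dab2-cKO. With the even background subtracted from each library, an alternative chosen after seeing the data, Ccne2 was at 37.5% and Ccne1 at 49.8% of WT, compared with 52.5% and 62.0% without subtraction. The share of Ccne1 in the 2 genes was 49.5% ± 1.35 for WT and 53.8% ± 6.45 for Dab2-cKO (SD, n = 3 each) and overlapping libraries (exact 2-sided permutation test, p = 0.4). Ints8 on the opposite strand shares 15.2% of the exon bases of Ccne2 and was at 419.6 and 382 normalized counts (log2 difference -0.13, adjusted p 0.34 by edgeR).

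Cdk2 encodes the kinase partner of the E-type cyclins and lies on the minus strand of chromosome 10 from 128533796 to 128540963 (ENSMUSG00000025358). WT replicates 1 to 3 held 198, 283 and 244 normalized counts, and Dab2-cKO replicates 1 to 3 held 155, 203 and 158. The groups overlapped, since Dab2-cKO replicate 2 was above WT replicate 1. Cdk2 also varied most among WT libraries, by 17.6% of its mean. The mean fell from 242 ± 42.7 to 172 ± 26.5 (SD, n = 3 each), a log2 fold change of -0.50 (SE 0.13, adjusted p 0.00129 by edgeR). Without WT replicate 2 it was -0.37 and no longer called (adjusted p 0.0554 by edgeR). Of the exon bases of Cdk2, 4.48% are shared with opposite-strand genes, 249 bases of them with the lncRNA Gm66040. Pmel, a pigment gene of melanocytes on that strand, shares 34 exon bases with Cdk2 and fell by 1.99 on the log2 scale.

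Cdc25a encodes the phosphatase that activates CDK2 and its relatives, and lies on the plus strand of chromosome 9 from 109704583 to 109723540 (ENSMUSG00000032477), with no exon base shared with a gene on the opposite strand. Its normalized counts were 244, 214 and 264 in WT replicates 1 to 3 and 193, 201 and 173 in Dab2-cKO replicates 1 to 3. The groups did not overlap, but the lowest WT library was close to the highest Dab2-cKO library. The mean fell from 241 ± 25.2 to 189 ± 14.4 (SD, n = 3 each), the smallest change called among the 9 genes (log2 fold change -0.35, SE 0.12, adjusted p 0.0225 by edgeR). The call was lost with DESeq2 (-0.35, adjusted p = 0.0716 by DESeq2) and without WT replicate 1, WT replicate 3 or Dab2-cKO replicate 3 (adjusted p 0.0533 by edgeR, 0.199 and 0.0883). Its promoter is shown because it is the single entry among the 7 with an E2F match, in capitals 67 bases before the start, and 0.654% of the promoter entries held such a match.

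Cdc25a, chr9:109875329-109875578, plus strand, GRCm38.p6: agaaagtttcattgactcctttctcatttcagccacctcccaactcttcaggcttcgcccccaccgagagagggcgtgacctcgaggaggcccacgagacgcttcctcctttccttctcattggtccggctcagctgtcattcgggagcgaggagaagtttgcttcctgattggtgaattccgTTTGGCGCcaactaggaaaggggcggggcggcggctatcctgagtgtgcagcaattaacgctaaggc

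**Figure D3:**
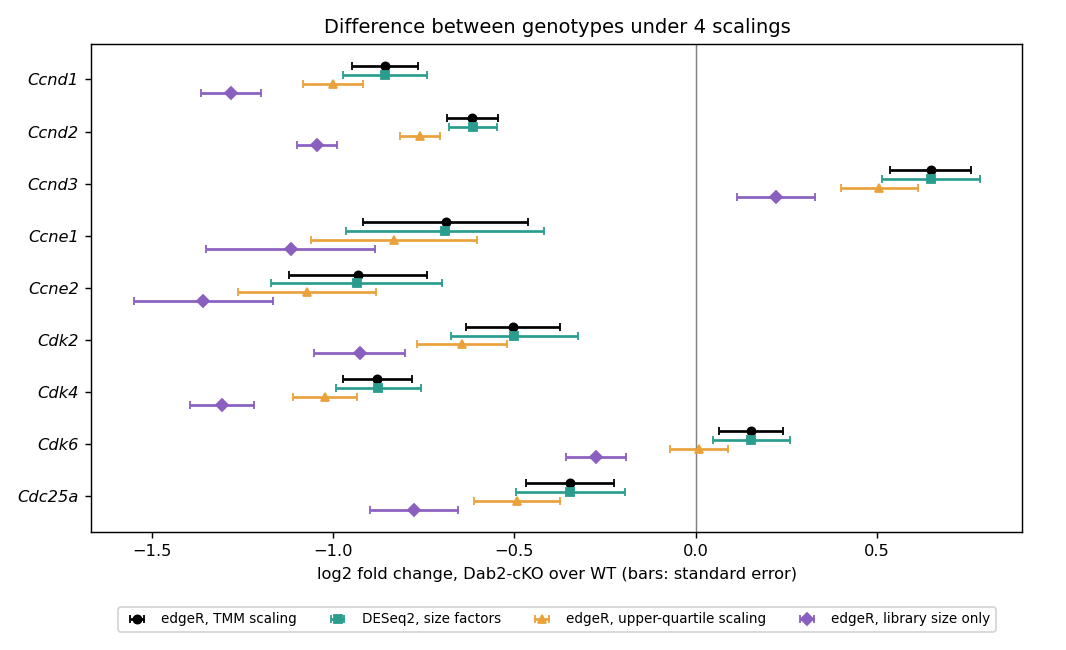
Log2 ratio of the Dab2-cKO to the WT libraries (horizontal axis, bars for SEs) of the 9 genes under 4 ways of scaling the libraries. The 7 genes called lower stay below 0 under all 4 and Ccnd3 above 0, while Cdk6 moves from 0.15 with TMM scaling to -0.27 with library size only.

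Per kb of exon, the order of levels in the WT libraries was Ccnd2 (305 normalized counts per kb), Cdk4 (163), Ccnd1 (131), Cdk2 (38.3), Cdk6 (30.9), Cdc25a (27.7), Ccnd3 (22.8), Ccne2 (20.1) and Ccne1 (19.7). Neighbours in this order whose libraries overlapped were Cdk2 with Cdk6, Cdk6 with Cdc25a, Ccnd3 with Ccne2, and Ccne2 with Ccne1. In the Dab2-cKO libraries the order was Ccnd2 (199), Cdk4 (89.1), Ccnd1 (72.3), Ccnd3 (35.8), Cdk6 (34.4), Cdk2 (27.2), Cdc25a (21.8), Ccne1 (12.2) and Ccne2 (10.5). Here Cdk4 with Ccnd1, Ccnd3 with Cdk6, and Ccne1 with Ccne2 overlapped. Ccnd3 thus moved from place 7 to place 4, while the places of Ccnd2, Cdk4 and Ccnd1 were 1, 2 and 3 in both genotypes. The exons of all annotated transcripts were pooled for these lengths, which the family shares above also use. They include the bases shared with opposite-strand genes, 48.4% for Ccnd1 and 18.8% for Cdk4. With the strand setting not given, levels and shares per kb, and the order of Cdk4 and Ccnd1, are uncertain to that extent.

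The genes whose products restrain G1 kinases mostly did not pass the test, like most of all genes tested. Of 7 CDK inhibitor genes, 6 were tested, 1 was called higher and 0 lower by edgeR, with a median log2 fold change of -0.03. Of all genes tested, 16.8% were called higher and 11.5% lower, with a median of -0.02, so these few genes were close to that background. With library size as the sole scaling, 3 were called lower, beside 11168 of all genes tested. Cdkn1c, which encodes p57, had 56.2 ± 3.31 normalized counts in WT and rose to 110 ± 16.5 (SD, n = 3 each; log2 fold change 0.96, SE 0.19, adjusted p 3.24e-05 by edgeR). Cdkn1a, encoding p21, was at 629 ± 56.9 and 574 ± 41.4 normalized counts, and its log2 difference of -0.13 missed the threshold (adjusted p 0.268 by edgeR). For Cdkn1b, encoding p27, the log2 difference was -0.16 (adjusted p 0.175 by edgeR). The INK4 genes Cdkn2b, Cdkn2c and Cdkn2d had log2 differences of -0.04, -0.03 and -0.01 with overlapping libraries. Cdkn2a had 5.52 to 15.6 normalized counts and was not tested.

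Downstream of the G1 kinases, 7 of 13 pocket protein and E2F genes were lower and 1 was higher, with a median of -0.41. For this list and those below, the shares of all genes tested were 11.5% lower and 16.8% higher, with a median of -0.02. E2f2 (-1.94) and E2f3 (-1.33), which encode activating E2F factors, had the largest log2 decreases, and E2f1 at -0.15 missed the threshold (adjusted p 0.637 by edgeR). Rbl2, whose product p130 binds E2F in quiescent cells, was higher (log2 fold change 0.27, adjusted p 0.016 by edgeR), a call lost with library size only, whereas Rb1 fell by 0.40 and Rbl1, encoding p107, by 0.86 on the log2 scale. Of the 20 replication genes known as E2F targets, 20 were lower, with a median of -0.80. Mcm5, a helicase subunit, went from 442 ± 32.6 to 215 ± 15.5 normalized counts, and Rrm2, a ribonucleotide reductase subunit, from 291 ± 21.5 to 138 ± 14.6 (SD, n = 3 each). Of the 6 later cyclins and Cdk1, 5 were lower with a median of -1.32, led by Ccnb2 (-1.74) and Ccna2 (-1.60). All 20 proliferation genes were lower, with a median of -1.498. Mki67, which encodes Ki67, was at 22.9% of WT, and Kif20a, a kinesin of cytokinesis, fell by 1.86 on the log2 scale. The 7 genes of the G1 set that were called lower had log2 fold changes from -0.93 to -0.35, smaller in size than the median of the proliferation list.

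**Figure D4:**
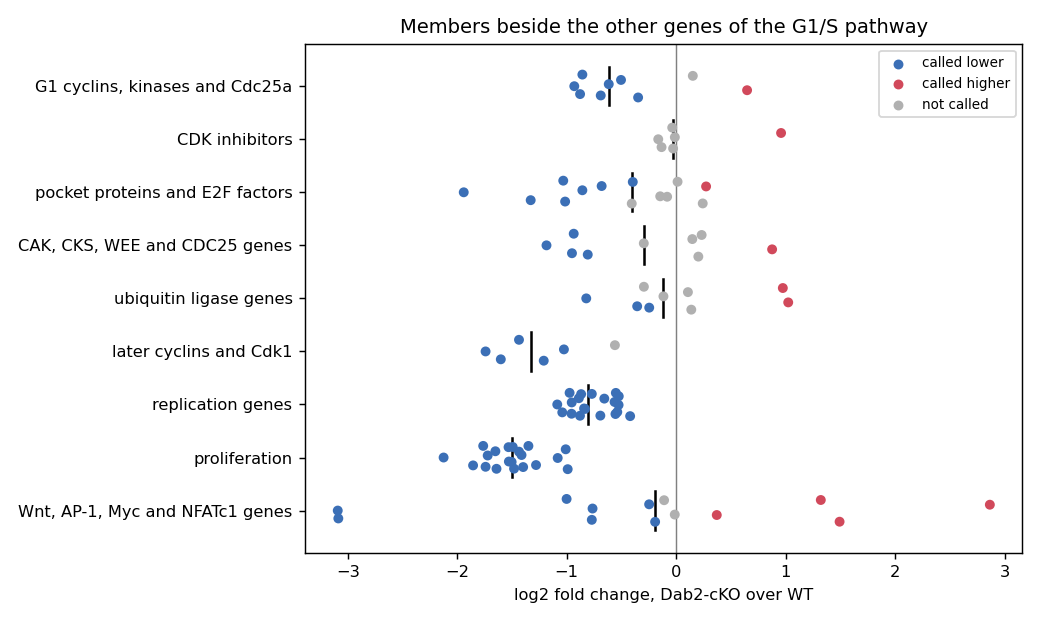
Log2 ratio of the Dab2-cKO to the WT libraries (horizontal axis) for each tested gene of the G1 set and of 8 further lists, with points for genes, black lines for list medians and colours for the edgeR call at an adjusted p under 0.05. The G1 set has a median of -0.62 and genes on both sides of 0, while all 20 replication and all 20 proliferation genes lie below 0.

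Among 9 genes that activate, adapt or inhibit these kinases, 4 were lower and 1 was higher, beside 11.5% and 16.8% of all genes tested. Pkmyt1 (-1.18), an inhibitory kinase of CDK1, and Cks2 (-0.95), a small subunit of CDK complexes, had the largest log2 decreases. Wee1, whose product places the inhibitory phosphate on CDKs that CDC25 enzymes remove, had 199 ± 34.3 normalized counts in WT and rose to 366 ± 25.0 (SD, n = 3 each; log2 fold change 0.88, adjusted p 1e-09 by edgeR). Of 9 tested genes of the ubiquitin ligases that act on G1 cyclins and inhibitors, 3 were lower and 2 higher, beside the same shares of all genes. Skp2, which targets p27, fell by 0.82 on the log2 scale, and Ambra1, an adaptor for the destruction of D-type cyclins, fell by 0.36. Fbxo31 and Fbxo4, F-box genes that have been linked to cyclin D1 turnover, rose by 0.97 and 1.02.

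Of 13 Wnt, AP-1, Myc, Runx1 and NFATc1 genes linked to the control of D-type cyclins and Cdk4, 7 were lower and 4 were higher. The shares of all genes tested were 11.5% and 16.8%. This list mixes activators with repressors and is not limited to transcription factors, so its counts give no direction of regulation. Mycn (-3.09) and Lef1 (-3.09) had the largest log2 decreases, and Fos (2.87) and Jun (1.49) the largest increases. Nfatc1, a factor of quiescent bulge cells reported to repress Cdk4, rose by 1.32 on the log2 scale, and Ctnnb1, encoding β-catenin, fell by 0.76. Myc had 249.7 ± 13.8 and 249 ± 34.7 normalized counts (SD, n = 3 each), a log2 difference of -0.01 with overlapping libraries (adjusted p 0.958 by edgeR).

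The genes whose log2 CPM values most resembled those of each member over the 6 libraries were also listed, among 10845 or 10846 genes averaging at least 100 normalized counts. For Ccnd2 they were Cdk1, Hmmr and Dedd2, each with Pearson's r = 0.999. For Ccnd1 they were Srsf3 (0.999), Pard3 (0.998) and Atp7a (0.998), and for Ccnd3 Acbd3 (0.999), Krcc1 (0.999) and Gabarapl1 (0.998). For Cdc25a the nearest were Napg (0.995), Rexo5 (0.984) and Rpgr (0.983). These values describe 6 points that share libraries, depth and 2 groups, and 17.4% of the genes compared had an r above 0.9 with Ccnd2.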

How the data were processed

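The authors trimmed reads with fastp 0.23.4, aligned them to GRCm39 with HISAT2 2.2.1 and deposited raw counts per gene from featureCounts 2.0.6. Strand setting, multi-mapping reads, use of molecular identifiers and annotation release are not given in the sources used here, so reads at bases shared by opposite strands cannot be assigned. The 5 ng of total RNA per library passed through a low-input stranded kit. The authors' table of their own DESeq2 comparison, with fold changes, p-values and rescaled counts, was not used. Count columns named FL-FL were taken as Dab2-cKO, as the series title equates them. The name alone does not tell the groups apart, since both carried floxed Dab2 alleles on both chromosomes.

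Counts of all genes were filtered by edgeR 4.0.16 (R 4.3.3), scaled by TMM and compared by the quasi-likelihood test with robust estimates and Benjamini-Hochberg adjustment, with calls at an adjusted p under 0.05. A normalized count is the count over the library's TMM-scaled size, times the mean scaled size. TMM factors were 1.11 to 1.21 in WT and 0.847 to 0.876 in Dab2-cKO. P-values measure the spread between 3 libraries, and no pair of replicates agreed within sampling noise. How much of that spread lies between mice and how much in library preparation was not tested. Exon lengths and overlaps came from GENCODE vM39 (98.9% of genes matched). The fit was also run on simulated counts with a small set of genes changed equally often up and down. That simulation did not test a difference in composition such as that between the genotypes here.

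The rule that picked the members used gene names and no values, but members and lists were chosen with earlier results of these data known. Named were all members and CDK inhibitors, Dab2, Mki67, sorting markers and, per other list, the 2 largest called rises and falls averaging at least 50 normalized counts without overlap, the most abundant gene (per kb) per marker list and the 3 genes most like each member where printed. Rb1, Rbl1, E2f1, Nfatc1, Ctnnb1, Myc, the 5 bulge markers that were lower and genes sharing exons were added after their values were seen. Of the listed genes, Skp1 and Krt85 were not analysed here. The 14 alternatives were DESeq2 1.42.0, upper-quartile scaling, library size only, TMM without mitochondrial and the 100 most abundant genes, other filters, a replicate block, each library left out, and a test against a 1.5-fold change.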

Additional observations from a re-analysis of the deposited data

How the results depend on the processing

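Ccnd1, Cdk4 and Dab2 kept their direction and call under all 14 alternatives listed above, and the 7 genes called lower and Ccnd3 kept their direction under all of them. Leaving out single libraries, log2 values ranged from -0.95 to -0.76 for Ccnd1, -0.65 to -0.58 for Ccnd2, 0.59 to 0.71 for Ccnd3, -0.79 to -0.61 for Ccne1, -1.07 to -0.81 for Ccne2, -0.66 to -0.37 for Cdk2, -0.97 to -0.80 for Cdk4, 0.09 to 0.20 for Cdk6 and -0.42 to -0.26 for Cdc25a. Between 5 and 7 of the 9 genes were then called lower and 1 higher. Against a 1.5-fold change, 2 genes, Ccnd1 and Cdk4, were still called lower and 0 higher (3.53% and 6.91% of all genes). Estimates do not move in that test, and Ccnd2 (-0.62), Ccnd3 (0.65), Ccne1 (-0.69), Ccne2 (-0.93), Cdk2 (-0.50) and Cdc25a (-0.35) were not past it, with edgeR's adjusted p from 0.0863 to 1. Cdc25a lost its call with DESeq2 (-0.35). With library size only, Ccnd3 (0.22) lost its call and Cdk6 reversed (-0.27), so that 0 members were called higher. This scaling called 11168 genes lower and 2686 higher, against 3682 and 5387 with TMM, upper-quartile scaling called 5561 lower, and the 1.5-fold test called 1136 and 2222. Library size only also called 3 CDK inhibitors, 11 pocket protein and E2F genes and 7 ubiquitin ligase genes lower, and 0 pocket protein and E2F genes higher. Subtracting the even background moved Ccnd3 to 0.79, Ccne1 to -1.005 and Ccne2 to -1.41. With no division by exon length, the shares differed by -4.00 points for Ccnd2, 7.30 for Ccnd3 and 17.6 for Cdk6. Same-numbered replicates did not deviate together (correlations 0.07, -0.01 and 0.06 between genotypes), and the replicate block called the same 7 lower and 1 higher among the members, and, of all genes, 3620 as lower and 5347 as higher, and changed no call among the members. Depth limits Ccne1 and Ccne2 most, with 34 to 137 counts per library.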
